A study of Homo sapiens with 16 samples.

Results

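A set of 10 well-known transcriptional targets of p53 was followed by RNA sequencing in human lung adenocarcinoma cells. The genes were CDKN1A, GADD45A, BTG2, GDF15, BBC3, FAS, PHLDA3, TP53I3, ZMAT3 and MDM2, taken by symbol from the protein-coding genes of the gene tables, and they made up 10 of 58735 gene identifiers and 10 of 19951 protein-coding ones. NCI-H1975 is an established lung adenocarcinoma line whose mutated EGFR is both active and resistant to early inhibitors. It was sequenced after the chloroform fraction of Flos Magnoliae (Magnolia flower buds, dried), after magnolin, a lignan of the same buds, and as a control, with 4 libraries in each group. Parental HCC827 cells, an established line with an activating EGFR deletion, were sequenced in 2 libraries. All cells carry the label WT, no dose, vehicle or exposure time is given, and afatinib-resistant HCC827 cells were not analysed here. Nothing in the labels says that replicates were separate cultures, so the spread behind each p-value is that between these libraries and may be technical. The series set out to find genes that change with resistance to EGFR inhibitors and compounds that act against them.

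The protein p53 is a transcription factor that is stabilised after DNA damage and other stress. It binds response elements made of a pair of similar short motifs and turns on genes for cell cycle arrest (CDKN1A, GADD45A, BTG2), for cell death (BBC3, FAS, PHLDA3, TP53I3) and for its own control (MDM2). Several of these genes are also switched on without p53: GDF15, GADD45A and BBC3 are known to respond to the integrated stress response, in which the factors ATF4 and DDIT3 act, and CDKN1A to several other factors.

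Promoter sequences are shown for the 2 members with the largest changes below, CDKN1A and GDF15, and for MDM2 and FAS, whose windows were the only ones among the members to hold a tandem p53 site. Each is the 250 bases before a RefSeq transcript start (GRCh38.p14, read along the gene's strand), and capitals mark matches to the motifs searched on both strands. These motifs were the p53 tandem site (2 p53 half-sites end to end, 20 bases, up to 2 mismatches outside the fixed core bases) and the single p53 half-site without mismatches. The others were the TATA box as TATAAA, the Sp1 box as GGGCGG and the composite element of ATF4 and its partners as TGATGNAA. A p53 half-site can lie inside a tandem site, and 2 Sp1 boxes in the CDKN1A window share a base.
CDKN1A, chr6:36678464-36678713, plus strand: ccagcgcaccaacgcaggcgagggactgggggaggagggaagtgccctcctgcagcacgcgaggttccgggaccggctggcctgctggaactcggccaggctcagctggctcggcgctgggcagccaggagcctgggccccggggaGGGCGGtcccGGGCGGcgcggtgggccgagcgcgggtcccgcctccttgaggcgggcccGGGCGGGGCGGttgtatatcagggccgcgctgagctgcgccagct
GDF15, chr19:18385908-18386157, plus strand: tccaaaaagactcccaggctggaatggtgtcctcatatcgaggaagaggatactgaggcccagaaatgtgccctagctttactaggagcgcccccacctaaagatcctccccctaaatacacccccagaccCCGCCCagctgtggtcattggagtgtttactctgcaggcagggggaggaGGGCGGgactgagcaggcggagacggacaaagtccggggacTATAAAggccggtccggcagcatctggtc
MDM2, chr12:68808767-68809016, plus strand: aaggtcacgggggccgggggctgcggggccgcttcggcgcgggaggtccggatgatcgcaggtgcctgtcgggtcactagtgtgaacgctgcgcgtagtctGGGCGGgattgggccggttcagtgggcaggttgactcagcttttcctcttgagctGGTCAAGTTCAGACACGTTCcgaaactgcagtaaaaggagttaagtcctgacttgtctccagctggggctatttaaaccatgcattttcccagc
FAS, chr10:88991181-88991430, plus strand: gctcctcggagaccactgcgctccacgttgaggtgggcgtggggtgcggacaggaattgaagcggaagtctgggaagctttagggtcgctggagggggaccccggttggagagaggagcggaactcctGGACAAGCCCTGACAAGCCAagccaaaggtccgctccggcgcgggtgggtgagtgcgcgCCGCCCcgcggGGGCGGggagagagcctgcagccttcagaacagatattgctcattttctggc
The CDKN1A window held 4 Sp1 boxes, and the GDF15 window held 1 TATA box and 2 Sp1 boxes. Both windows lie inside the gene coordinates given below, before a start within the gene. MDM2's window precedes the internal start of the gene, long known as its p53-responsive promoter, and holds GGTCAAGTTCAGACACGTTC. The FAS window lies before a start inside the gene and holds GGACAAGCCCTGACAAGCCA. Of 35116 RefSeq promoter windows of this length 0.242% held a tandem site, 5.57% a p53 half-site, 10.7% the TATA box, 42.6% the Sp1 box and 3.14% the composite element. Entries existed for 8 of the 10 members, in 14 windows, and none of these 14 held the composite element; GADD45A and PHLDA3 had no entry. A match describes the letters of a window and says nothing of binding, and a window without one says nothing of p53 sites elsewhere in a gene.

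The libraries held 15.9 to 21.3 M reads assigned to genes, as rebuilt from FPKM (reads per kilobase of gene, scaled to library size). Replicates 1 and 2 of the 3 NCI-H1975 groups are in one deposited table and replicates 3 and 4 in another, and each table was scaled on its own. The 3 libraries numbered replicate 1 stood apart from the other 9 NCI-H1975 libraries. EPCAM, an epithelial adhesion protein, was at 178 FPKM in the fraction, 172 in magnolin and 193 in control replicate 1, against 7.65 to 14.4 FPKM in the others. CDH1 (E-cadherin) was likewise at 54.2 to 74.2 FPKM against 4.88 to 9.39 FPKM. Among the members, replicate 1 lay above replicate 2 in all 3 groups for CDKN1A, FAS and PHLDA3 and below it for BBC3 and GADD45A, and of these 5 only CDKN1A had ranges that overlapped between the 2 numbers. What set replicate 1 apart was not tested. The epithelial keratin gene KRT18 was at 94.3 to 205 FPKM over the NCI-H1975 libraries and fell with both treatments in replicates 3 and 4, as given beside the gene lists. Of 10 markers of other cell types, PTPRC, CD3E, DCN and HBB were at or near 0, while CD14 and COL1A2 were expressed, with the lowest values in replicate 1 of each group.

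**Figure D1:**
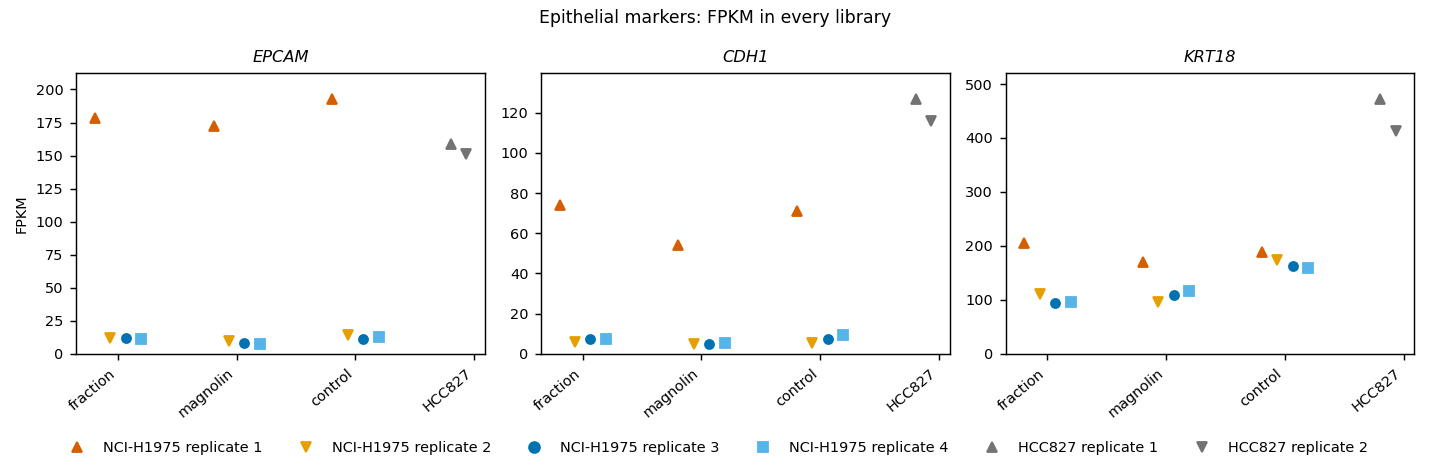
FPKM of the epithelial genes EPCAM, CDH1 and KRT18 (y axes, linear, from 0) in every library, by group (x axis); each marker is 1 library and its shape and colour give the replicate number. The 3 replicate 1 libraries of NCI-H1975 lie at 172 to 193 FPKM for EPCAM and at 54.2 to 74.2 FPKM for CDH1, apart from the other 9.

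The arrest gene CDKN1A was higher with both treatments than in the control of the same number throughout. CDKN1A (ENSG00000124762, chromosome 6, 36676460 to 36687339) encodes p21, the inhibitor of cyclin-dependent kinases. In replicates 1 to 4 it measured 31.2, 14.2, 24.4 and 28.7 FPKM with the fraction. With magnolin it measured 25.9, 22.3, 14.6 and 15.6 FPKM, and in controls 17.7, 6.81, 10.3 and 9.27 FPKM. In replicates 3 and 4 the 3 groups did not overlap, in the order fraction, magnolin, control. Over all 4 numbers the groups overlapped, since control replicate 1 was as high as some treated libraries. The ratio of fraction to control was 1.76, 2.09, 2.36 and 3.10 by replicate number, and that of magnolin to control 1.46, 3.27, 1.42 and 1.68. Parental HCC827 cells had 2.57 and 3.18 FPKM, in a separately scaled table.

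CDKN1A averaged, over replicates 3 and 4, 26.5 ± 3.10 FPKM with the fraction and 9.79 ± 0.736 FPKM in controls (SD, n = 2 each). It was higher by 1.35 ± 0.11 (SE) on the log2(FPKM + 1) scale (limma, adjusted p = 0.00128), and the 95% interval ran from 1.09 to 1.61. This call held under all 13 alternative settings. Against magnolin (15.1 ± 0.710 FPKM, n = 2) the fraction was higher by 0.77 ± 0.11 (adjusted p = 0.0111), a call that was lost without magnolin replicate 3 (adjusted p = 0.0728) or without magnolin replicate 4 (0.0721). Magnolin itself was 0.58 ± 0.11 above control with an adjusted p of 0.0913, which did not pass 0.05; it passed when the same reads were tested with voom (0.0128) or protein-coding genes alone were tested (0.0147).

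GADD45A (ENSG00000116717, chromosome 1, 67685061 to 67688338), a stress-induced protein that acts in arrest and repair, showed a smaller change on a background that differed between the tables. Replicates 1 to 4 had 30.3, 30.6, 20.7 and 23.9 FPKM with the fraction, and 29.1, 43.9, 18.1 and 16.3 FPKM with magnolin. Controls had 23.5, 34.7, 14.3 and 13.2 FPKM. Within replicates 3 and 4 the fraction libraries were highest and the controls lowest with no overlap, while in replicate 2 the fraction library lay below its control. Between fraction and control in replicates 3 and 4 GADD45A rose by 0.66 ± 0.10 (limma, adjusted p = 0.00925); without control replicate 3 or 4 the adjusted p was 0.0503 or 0.0795. Magnolin lay above its control in 4 of 4 numbers, by 1.23 to 1.27 times, without a call (0.30 ± 0.10 in replicates 3 and 4, adjusted p = 0.265).

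BTG2 (ENSG00000159388, chromosome 1, 203305491 to 203309602), an antiproliferative protein, was among the lowest members in NCI-H1975 and did not reach the level required for a test (at least 1 FPKM in at least 2 libraries of a table). It measured 0.399, 0.684, 0.690 and 0.615 FPKM with the fraction, 1.14, 0.910, 0.876 and 1.16 FPKM with magnolin, and 0.610, 0.491, 0.543 and 0.432 FPKM in controls. The magnolin libraries lay above all controls and all fraction libraries, over the 4 numbers, on 20 to 59 reads a library. With no filter on low genes the magnolin difference in replicates 3 and 4 had an adjusted p of 0.530. HCC827 cells had more, 2.07 and 1.80 FPKM.

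**Figure D2:**
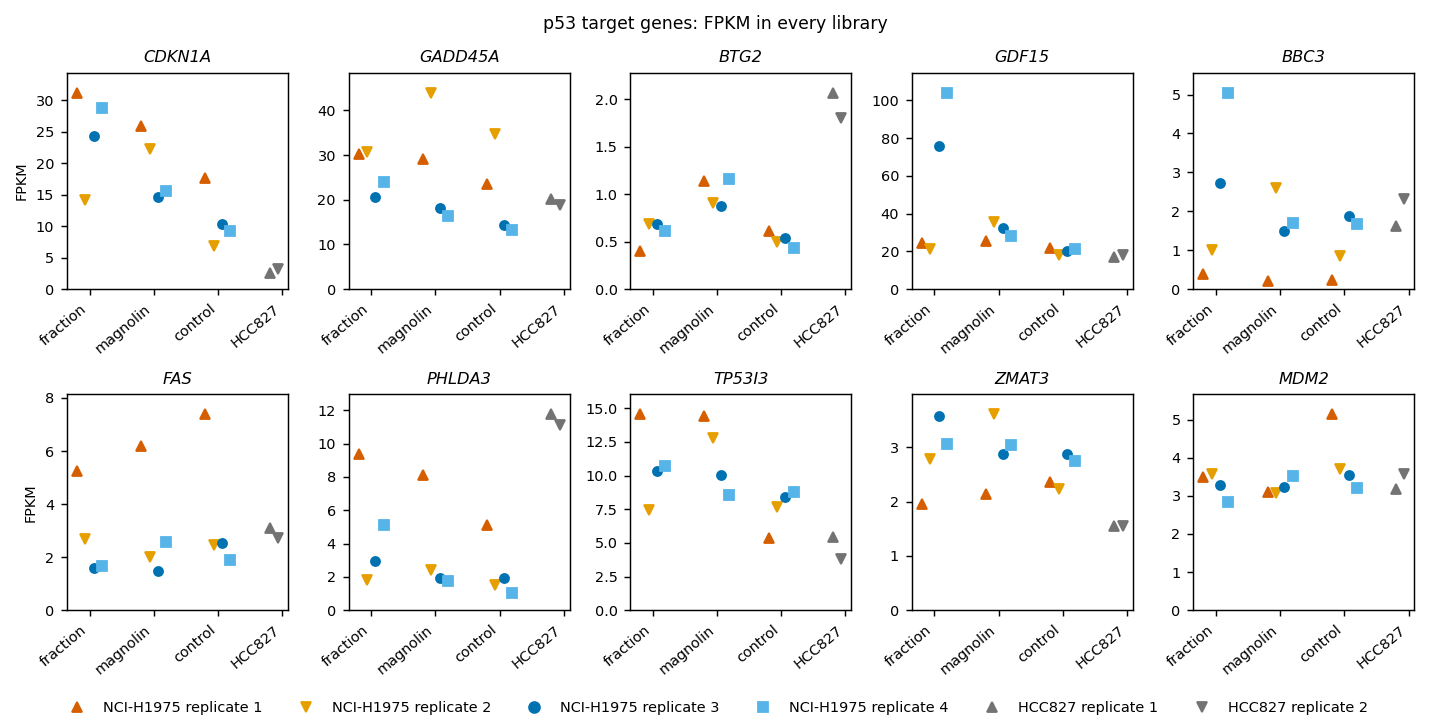
FPKM of the 10 p53 target genes (y axes, linear, from 0) in every library, by group (x axis); each marker is 1 library and its shape and colour give the line and replicate number. Within replicates 3 and 4, CDKN1A and GDF15 are highest with the fraction (24.4 and 28.7, and 76.0 and 104 FPKM), while MDM2 stays between 2.83 and 5.15 FPKM throughout.

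The secreted stress cytokine GDF15 (ENSG00000130513, chromosome 19, 18374731 to 18389176) had the largest change of the members, in replicates 3 and 4 with the fraction. Replicates 1 to 4 measured 24.3, 21.2, 76.0 and 104 FPKM with the fraction. They measured 25.5, 35.7, 32.4 and 28.2 FPKM with magnolin, and 21.7, 18.0, 20.2 and 21.3 FPKM in controls. Fraction replicates 3 and 4 thus stood far above every other library, whereas fraction replicates 1 and 2 lay near or within the range of the controls. Each of the 4 magnolin libraries was above each of the 4 controls. The ratio of fraction to control by replicate number was 1.12, 1.18, 3.75 and 4.89, and that of magnolin to control 1.17, 1.98, 1.60 and 1.32.

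With the fraction GDF15 rose in replicates 3 and 4 by 2.05 ± 0.15 against control (limma, adjusted p = 0.00115) and was higher than with magnolin by 1.53 ± 0.15 (adjusted p = 0.00498). Both calls held under all 13 alternatives. Magnolin against control gave 0.52 ± 0.15 (adjusted p = 0.227). The difference between the tables in the effect of the fraction was 1.86 ± 0.30 for GDF15 with an adjusted p of 0.440 over all genes. It passed with the replicate number as a block (0.0472), without replicate 1 (0.0490) and without replicate 2 (0.0274). The main fit of this difference pools the spread between libraries of both tables. For GDF15 the SD in FPKM was larger in replicates 1 and 2 for controls and magnolin, and larger in replicates 3 and 4 for the fraction. The part of this spread in the adjusted p was not tested.

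Of the death genes, PHLDA3 was the one called. PHLDA3 (ENSG00000174307, chromosome 1, 201464383 to 201469237) encodes an inhibitor of AKT signalling. Replicates 1 to 4 had 9.36, 1.78, 2.93 and 5.09 FPKM with the fraction, 8.14, 2.38, 1.93 and 1.77 FPKM with magnolin, and 5.09, 1.53, 1.93 and 1.02 FPKM in controls. Both treatments were above control in all 4 numbers, although magnolin and control differed in replicate 3 by a ratio of only 1.004. Numbers gave no clear pairing in replicates 3 and 4, where magnolin replicate 4 (1.77 FPKM) lay below control replicate 3 (1.93 FPKM). The difference between fraction and control was 1.01 ± 0.26 in replicates 3 and 4 (limma, adjusted p = 0.0444), a call that ended in 8 of 13 alternatives, the replicate block among them (0.0749). HCC827 cells had 11.8 and 11.1 FPKM.

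BBC3 (ENSG00000105327, chromosome 19, 47220822 to 47232766) encodes PUMA, a BH3-only trigger of mitochondrial apoptosis. It measured 0.395, 1.02, 2.72 and 5.04 FPKM with the fraction, 0.201, 2.60, 1.5 and 1.71 FPKM with magnolin, and 0.241, 0.837, 1.88 and 1.68 FPKM in controls. The fraction library was above its control in 4 of 4 numbers, and fraction replicate 4 was the highest of all. The difference in replicates 3 and 4 was 0.77 ± 0.23 (limma, adjusted p = 0.0681, and 0.00886 to 0.250 over the alternatives, with 3 of 13 called). In the table of replicates 1 and 2 BBC3 reached the level for a test only through 1 fraction and 1 magnolin library.

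FAS (ENSG00000026103, chromosome 10, 88990582 to 89015785), the death receptor, was not called in either direction. In replicates 3 and 4 it had 1.59 and 1.65 FPKM with the fraction, 1.47 and 2.56 FPKM with magnolin, and 2.52 and 1.89 FPKM in controls. The fraction was below control in 3 of 4 numbers; its difference in replicates 3 and 4 was -0.28 ± 0.21 (limma, adjusted p = 0.383), with an interval from -0.79 to 0.23. Replicate 1 stood out with 5.24 FPKM with the fraction, 6.20 with magnolin and 7.40 in control, and replicate 2 did not, with 2.67, 2.02 and 2.46 FPKM in the same order of groups. The FAS ligand gene FASLG was at 0 in all libraries but magnolin replicate 1.

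TP53I3 (ENSG00000115129, chromosome 2, 24077433 to 24085861), a quinone oxidoreductase linked to p53-induced oxidative stress, had 14.6, 7.43, 10.4 and 10.7 FPKM with the fraction in replicates 1 to 4. It had 14.4, 12.8, 10.04 and 8.57 FPKM with magnolin, and 5.34, 7.63, 8.44 and 8.80 FPKM in controls. Its largest ratios to control were in replicate 1, at 2.73 for the fraction and 2.71 for magnolin. In replicates 3 and 4 the fraction libraries lay above the controls without overlap, but by 0.26 ± 0.09 only (limma, adjusted p = 0.107).

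The feedback gene MDM2 was not called in any comparison. MDM2 (ENSG00000135679, chromosome 12, 68808176 to 68850686) encodes the ubiquitin ligase that marks p53 for degradation and is itself a p53 target. In replicates 1 to 4 it measured 3.49, 3.58, 3.29 and 2.83 FPKM with the fraction, 3.09, 3.08, 3.24 and 3.53 FPKM with magnolin, and 5.15, 3.70, 3.55 and 3.22 FPKM in controls. The fraction was below the control of the same number in 4 of 4 numbers and magnolin in 3 of 4. Numbers gave no clear pairing in replicates 3 and 4, where fraction replicate 3 (3.29 FPKM) lay above control replicate 4 (3.22 FPKM). The difference between fraction and control in replicates 3 and 4 was -0.11 ± 0.11 (limma, adjusted p = 0.504); its interval, -0.38 to 0.15, contains 0. For magnolin the difference was 0.00 ± 0.11, with an interval from -0.26 to 0.27. HCC827 cells had 3.17 and 3.59 FPKM, within the NCI-H1975 range.

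ZMAT3 (ENSG00000172667, chromosome 3, 179017223 to 179072279), an RNA-binding protein, had 3.57 and 3.07 FPKM with the fraction in replicates 3 and 4, 2.88 and 3.04 FPKM with magnolin, and 2.87 and 2.75 FPKM in controls. Replicates 1 and 2 had 1.95 and 2.79 FPKM with the fraction, 2.13 and 3.61 FPKM with magnolin, and 2.35 and 2.23 FPKM in controls, so the groups overlapped there. The difference between fraction and control was 0.18 ± 0.11 (limma, adjusted p = 0.282). PPM1D, a phosphatase that turns off p53 signalling, measured 2.34 and 2.38 FPKM with the fraction against 2.97 and 2.89 FPKM in controls (-0.23 ± 0.10, adjusted p = 0.164). MDM4, an inhibitor of p53 related to MDM2, had 4.21 and 3.70 FPKM with the fraction and 3.25 and 3.12 FPKM in controls (adjusted p = 0.162).

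**Figure D3:**
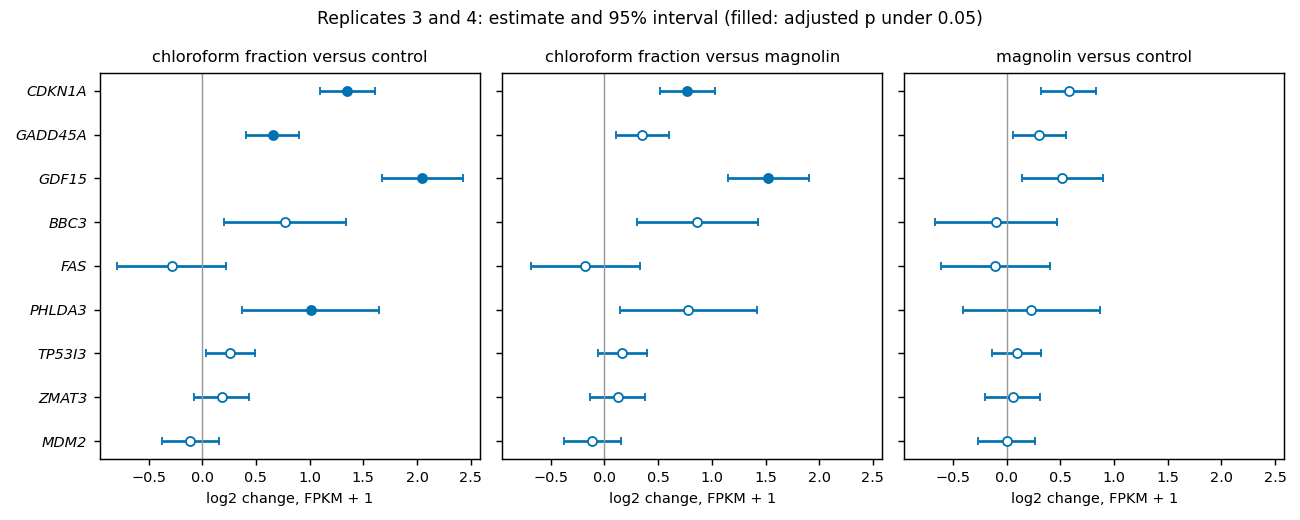
Estimated difference in log2(FPKM + 1) with its 95% interval (x axis) for the 9 tested members (rows) in the 3 comparisons of replicates 3 and 4 (panels); filled points have a limma adjusted p under 0.05. CDKN1A, GADD45A, GDF15 and PHLDA3 are filled for fraction against control (0.66 to 2.05), CDKN1A and GDF15 for fraction against magnolin, and none for magnolin against control.

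Counted together, 4 of the 9 tested members were called between fraction and control in replicates 3 and 4, all of them higher. Over all 14673 genes 19.9% were called in either direction and 8.33% higher, so the members' share was above that of genes in general. All 9 members reached 1 FPKM in every one of these 6 libraries. The median difference of the 9 was 0.66, beside -0.01 over all genes. Between fraction and magnolin 2 members were called, both higher, against 14.9% of all genes in either direction and 5.55% higher. Between magnolin and control limma called 0 of 9 members (0.627% of all genes). Under an unadjusted limma p of 0.05 there were 3 members, beside 2083 of all 14673 genes. The comparisons share libraries, so their values are not independent of each other.

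The mitochondrial share of reads was higher with the fraction than in controls in replicates 3 and 4. Mitochondrial transcripts made up 8.17 and 7.04% of the reads in fraction replicates 3 and 4, and 5.84 and 5.83% of those in the 2 controls. Magnolin replicates 3 and 4 had 6.40 and 6.38%. Replicates 1 and 2 had 7.60 and 8.42% with the fraction, and 9.42 and 8.06% in controls. The part of these transcripts in the results was not tested. Fewer cells of one kind and less RNA per cell cannot be told apart in such bulk libraries.

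In replicates 1 and 2 limma called 0 of 9 members in each of the 3 comparisons (0% of all 13103 genes). At an unadjusted p under 0.05 without the block there were 0 members between fraction and control, 1 between magnolin and control (TP53I3) and 0 between fraction and magnolin. Beside these stood 107, 255 and 93 of all 13103 genes, in the same order. Voom also called 0 members after adjustment. With the replicate number as a block, for which these libraries gave a clear pairing, 0 members were called again, beside 0.183% of all genes for fraction against control and 0.992% for magnolin against control. At an unadjusted p under 0.05 this block fit had 3 members for fraction against control (CDKN1A, TP53I3 and PHLDA3, all higher), beside 801 genes. For magnolin against control it had 5 members, beside 1946 genes, with CDKN1A, TP53I3, GDF15 and PHLDA3 higher and MDM2 lower, and for fraction against magnolin 0 members, beside 852 genes. CDKN1A came nearest, with 1.05 ± 0.24 for magnolin (adjusted p = 0.0540) and 0.87 ± 0.24 for the fraction (0.226), followed by TP53I3 with 0.98 ± 0.25 for magnolin (0.0867).

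Over all 4 replicate numbers, with the number as a block, limma called 0 members in each comparison. In fraction against control 0.184% of 13614 genes were called, and in the other 2 comparisons 0%. At an unadjusted p under 0.05 there were 4 members for fraction against control (CDKN1A, GDF15, GADD45A and PHLDA3), 2 for magnolin against control (CDKN1A and TP53I3) and 0 for fraction against magnolin. Beside these stood 2547, 1302 and 997 of all 13614 genes, in the same order of comparisons. CDKN1A was 1.11 ± 0.21 higher with the fraction (adjusted p = 0.0646) and 0.81 ± 0.21 higher with magnolin (0.312). The fraction value passed with voom (0.0155), with protein-coding genes alone (0.0251) and without replicate 2 (0.0484); without replicate 1 the count remained 0. The difference between the tables in the effect of the fraction, and likewise of magnolin, was fitted without the block. It was called in 0 members and 0% of all genes. Under an unadjusted p of 0.05 there was 1 member in each case, GDF15 for the fraction and TP53I3 for magnolin. Over all 13614 genes this cut held 606 for the fraction and 555 for magnolin. With the block the difference in the effect of the fraction was called in 1 member, GDF15, and in 0.411% of all genes (19 higher, 37 lower), and that in the effect of magnolin in 0 members and 0%.

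**Figure D4:**
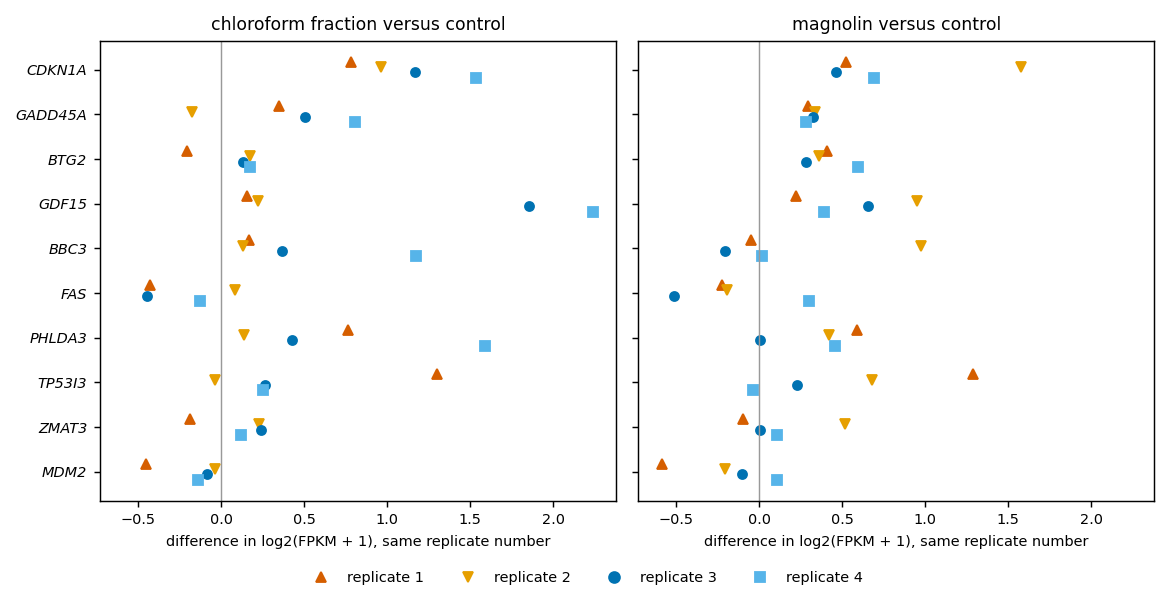
Difference in log2(FPKM + 1) between the treated and the control library of the same replicate number (x axis) for the 10 members (rows), for the fraction (left) and magnolin (right); each marker is 1 replicate number. CDKN1A, GDF15 and PHLDA3 are right of 0 in 4 of 4 numbers in both panels, and MDM2 is left of 0 in 4 of 4 with the fraction. Libraries of replicates 3 and 4 showed no clear pairing by number.

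Members of a list of 30 further p53 targets were called in both directions. Of 25 tested in replicates 3 and 4, 5 rose and 1 fell with the fraction, with a median of -0.09. The share called in either direction is near the 19.9% over all genes. The 5 of 25 called higher lie above the 8.33% of all genes called higher, and the 1 of 25 called lower lies below the 11.6%. Nothing is read from these counts about the list. SESN2, a stress-induced regulator of mTORC1, rose by 1.90 ± 0.08 (limma, adjusted p = 0.000348) and is also a known ATF4 target. PIDD1, a death domain protein, rose by 0.85, PMAIP1 (NOXA, a BH3-only protein) by 0.41, the repair gene XPC by 0.39 and the death receptor TNFRSF10B by 0.35, while the kinase PLK2 was lower by 0.79 on the log2 scale. SESN2 measured 17.5 and 19.2 FPKM with the fraction, against 4.22 and 4.14 FPKM in controls, in ranges far apart. Between magnolin and control 0 of these 25 were called.

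Other groups around the pathway are given as counts for fraction against control in replicates 3 and 4, where 8.33% of all genes were called higher and 11.6% lower. Of 12 tested regulators and partners of p53, 0 rose and 3 fell: TP63, a transcription factor of the same family, with -1.24, and the checkpoint kinases CHEK1 with -0.80 and CHEK2 with -0.66. The list's share called in either direction is near the 19.9% over all genes, while the 3 of 12 called lower lie above the 11.6%. Nothing is read from these counts about this list. Of 9 tested genes of the integrated stress response, SESN2 among them, all 9 rose, with a median of 1.63, beside the 8.33% of all genes called higher. DDIT3 (CHOP) had 21.1 and 18.8 FPKM with the fraction, against 6.70 and 4.28 FPKM in controls, and ATF4 had 115 and 122 FPKM with the fraction, against 61.5 and 67.0 FPKM. All 9 were also called higher with the fraction than with magnolin, beside 5.55% of all genes. ASNS, 1 of these 9, reached the level for a test only through the fraction libraries, at 2.45 and 2.83 FPKM. It was at 0.478 and 0.494 FPKM in controls and 0.741 and 0.719 FPKM with magnolin. Its place in both counts of 9 and in the median was thus set in part by that filter. Of 18 cell cycle genes, taken as lying downstream of p21, 10 fell and 1 rose, beside the 11.6% of all genes called lower. The mitotic cyclin CCNB1 was lower by 2.09 on the log2 scale and CCND1 higher by 0.89. Of 10 tested apoptosis genes, taken as lying downstream of FAS and BBC3, 0 rose and 1 fell, BID with -0.73. That share is near the 11.6% of all genes called lower, and nothing is read from 1 gene about the list. Of 6 epithelial genes 0 rose and 2 fell with the fraction: KRT8 with -0.87 (99.6 and 103 FPKM with the fraction, against 187 and 186 FPKM in controls) and KRT18 with -0.75 (94.3 and 96.0 FPKM, against 163 and 159 FPKM). Both also fell with magnolin, KRT8 with -0.53 (limma, adjusted p = 0.0276) and KRT18 with -0.51 (adjusted p = 0.0402). Among 3 tested markers of other cell types 2 fell, CD14 with -2.28 (4.13 and 5.07 FPKM with the fraction, against 32.6 and 20.9 FPKM in controls) and COL1A2 with -1.08; the part of these epithelial and other markers in the members' changes was not tested.

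Across the 12 NCI-H1975 libraries, after each replicate number was centred on its mean, members that rose with the fraction correlated positively with each other. MDM2 and FAS correlated negatively with them. Pearson's r over 12 libraries was 0.90 between GDF15 and GADD45A, 0.87 between CDKN1A and GDF15 and 0.85 between CDKN1A and GADD45A. It was -0.57 between CDKN1A and MDM2 and -0.95 between MDM2 and TP53I3. These values describe libraries that share treatments and tables, and the centring leaves the treatment effect in. Members were grouped by their change with the fraction in these same libraries, so the signs follow in part from that grouping. Among 11021 genes, those most like CDKN1A were MCAM (0.997), TANGO2 (0.988) and L1CAM (0.988), and those most like GDF15 were CCDC33 (0.986), TRIB3 (0.982) and CARS (0.982). Most like MDM2 were GTF2H1 (0.960) and TIGD1 (0.959).

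Parental HCC827 cells, listed in a table scaled on its own, had another order of members. PHLDA3 (11.8 and 11.1 FPKM) and BTG2 were above all 12 NCI-H1975 libraries, and CDKN1A (2.57 and 3.18 FPKM), TP53I3 (5.41 and 3.82) and ZMAT3 (1.55 in both) were at or below their low end. GADD45A (20.1 and 18.9), GDF15 (16.8 and 17.9) and FAS (3.10 and 2.73 FPKM) lay within or just under the NCI-H1975 range. In the controls of replicates 3 and 4 the order of levels was GDF15, GADD45A, CDKN1A, TP53I3, MDM2, ZMAT3, FAS, BBC3, PHLDA3 and BTG2; the ranges of CDKN1A and TP53I3 did not overlap, while that of PHLDA3 overlapped those of FAS and BBC3.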

How the data were processed

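RNA sequencing was read from the gene tables of 12 NCI-H1975 libraries and 2 libraries of parental HCC827 cells; 2 further columns matched no sample label and were not used. The authors deposited FPKM per gene on hg38, per the submitters' processing notes; the sources used here name no aligner, counter or strand setting, so overlapping or antisense genes may share reads. Multiplying FPKM by gene length gave whole reads within 0.05 for genes of up to 2000 reads, and depth (15.9 to 21.3 M reads) and the voom alternative use these rebuilt reads. FPKM were compared as log2(FPKM + 1), which understates changes of low genes.

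Genes with at least 1 FPKM in at least 2 libraries of a table (4 of 12 over both tables) were tested with limma 3.58.1 in R 4.3.3 (empirical Bayes with a mean trend, the 3 NCI-H1975 groups sharing 1 spread). Benjamini-Hochberg adjustment ran over all genes tested, with a threshold of 0.05. The main fits of replicates 3 and 4, of both tables together and of the difference between tables were tested on simulated data. Only the contrast of fraction with control was simulated, with libraries independent of each other and not paired by replicate number. The fit of replicates 1 and 2 and the alternatives were not tested in this way. HCC827 was described without a test. Replicate numbers are shared between groups. Deviations of same-numbered libraries from their group means correlated at 0.302 to 0.859 in 12 pairs over 4 numbers, at 0.717 to 0.760 within replicates 1 and 2 and at -0.03 to 0.08 within replicates 3 and 4. The number was therefore a block in the fit over both tables and an alternative within a table and in the fit of the difference between tables. That pairing comes from these correlations alone.

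Promoter sequences are from RefSeq (GRCh38.p14), and gene identifiers and coordinates are as in the files. The members were given by symbol, and members, gene lists and the rule for named genes (all members, up to 6 called genes of a list by size of change, MDM4 and PPM1D, and the genes most like CDKN1A, GDF15 and MDM2) were chosen with earlier results of these data known. All 108 listed genes matched. A further named gene is left unreported here. Alternatives were a pseudocount of 0.1, no filter, median-ratio rescaling over genes at 1 FPKM or more, voom, protein-coding genes only, the block, the compared groups alone, and leaving out each library.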

Additional observations from a re-analysis of the deposited data

Results flagged for a closer look

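Within each group of 4 NCI-H1975 libraries, the highest or lowest value of a member was compared with its nearest neighbour by Dixon's ratio, in 30 groups, of which chance flags about 1 in 20. FAS was at 7.40 FPKM in control replicate 1, far above the other 3 controls at 1.89 to 2.52 FPKM (gap over range 0.886). PHLDA3 was at 8.14 FPKM in magnolin replicate 1, against 1.77 to 2.38 FPKM in the other 3 magnolin libraries (0.904). Both values belong to replicate 1, whose 3 libraries differ from the rest in EPCAM and CDH1 as well, and the comparisons of replicates 3 and 4 do not use them.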

How the results depend on the processing

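In replicates 3 and 4, the members called between fraction and control numbered 4 in the main test, 3 with the replicate block or no filter, 5 with voom, and 2 to 5 with 1 library left out (2 without either control). CDKN1A and GDF15 were called in every one of these settings. Over all genes the 1222 higher and 1696 lower calls became 636 and 962 with no filter, 384 and 563 without control replicate 3, and 304 and 424 without control replicate 4. Between fraction and magnolin the 2 members became 5 with voom and 5 with protein-coding genes only, and 1 to 5 with 1 library left out (5 without fraction replicate 3, 1 without either magnolin library). Among all 14673 genes voom called 1840 higher and 2270 lower between fraction and control. For fraction against magnolin it called 1638 higher and 1673 lower, where the main test called 814 and 1374. With protein-coding genes only, 1132 of 11196 genes were higher and 1942 lower in that comparison. Between magnolin and control the 0 members became 1 with voom and 1 with protein-coding genes only, in both cases CDKN1A. The 37 higher and 55 lower genes there became 161 and 416 with voom and 141 and 254 with protein-coding genes only. They became 21 and 22 with the replicate block, and 0 and 0 with no filter.

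Over both tables the 0 members between fraction and control became 2 with voom, 1 with protein-coding genes only and 0 to 1 with a replicate number left out. The 19 higher and 6 lower calls over all genes became 150 and 72 with voom, and 107 and 73 with protein-coding genes only. The difference between tables in the effect of the fraction had 0 members, 1 with the replicate block (GDF15) and 0 to 2 with a replicate number left out; without replicate 2 these 2 were GDF15, higher, and TP53I3, lower (adjusted p = 0.0342), whose difference ran from -1.04 to 0.29 over the alternatives. The other counts of members were 0 under all alternatives run, and the members called in the main tests of replicates 3 and 4 kept their direction under all of them. The cause of these changes was not tested, apart from protein-coding genes only, where fewer genes are tested. The comparison of resistant with parental HCC827 cells was not run. With 2 libraries in a group a lone library is assumed to vary like the others, and counting error limits BBC3 (12 to 265 reads over all 14 libraries) and BTG2 (20 to 94 reads).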
